A study of Homo sapiens with 6 samples.

Results

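The 14-3-3 proteins are encoded by 7 human genes, YWHAB (beta), YWHAE (epsilon), YWHAG (gamma), YWHAH (eta), YWHAQ (theta), YWHAZ (zeta) and SFN (sigma), and their mRNAs were examined in 6 libraries of IR-PAR-CLIP, which crosslinks a protein to RNA that holds a photoactivatable nucleoside, recovers the protein and sequences the bound fragments. A cluster, a stretch of overlapping crosslinked reads, was counted for one of these genes when 1 nt or more of it lay, with matching strand, in an exon of GENCODE release 44. This gave 383 of the 244645 clusters of all libraries, on 7 of the 9353 protein-coding genes that held a cluster in any of them. None of the 383 clusters overlapped an exon of another gene.

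All libraries came from HCT116 Tet-OsTIR1-PURO cells, a human colorectal carcinoma line that carries the rice F-box protein OsTIR1, used for auxin-induced degradation. The cells had received 100 µM 4-thiouridine for 15 h and were crosslinked at 365 nm, and the crosslinked nucleoside appears in the reads as a T-to-C conversion. Endogenous IGF2BP3 was precipitated in 5 of the libraries. The RNA had been cut by RNase I at 0.05/0.05, 0.1/0.025 or 0.05/0.025 U/µL (in-lysate/on-beads) in 3 of them and by RNase T1 at 1/1 or 0.25/0.25 U/µL in the other 2, and the sixth was an IgG control with RNase I at 0.1/0.025 U/µL. Each condition was 1 library of the same line, so that no difference between conditions has a replicate check, and all 95% intervals (Wilson for shares, Poisson for rates and exact for ratios) cover counting error only. The antibody partially recognizes the paralog IGF2BP2. RNA was electroeluted from the gel for the RNase I 0.05/0.05 and RNase T1 1/1 libraries and extracted from crushed gel for the other 3 IGF2BP3 libraries, so that gel extraction and concentration cannot be told apart between these 2 libraries and the others of their enzyme. The RNase I 0.1/0.025 and 0.05/0.025 libraries share the extraction and the on-beads concentration and differ in the in-lysate concentration. The study's methods give a lower in-lysate concentration for the 0.1/0.025 library in one place, and the label is followed here.

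14-3-3 proteins form dimers that hold other proteins at phosphorylated serine or threonine residues and thereby change their location, activity or stability. The YWHA genes are expressed in most tissues, whereas SFN, also called stratifin, is mainly an epithelial gene that is induced by p53 and restrains entry into mitosis. IGF2BP3 is a cytoplasmic RNA-binding protein that is known to bind mainly 3′UTRs and to affect the stability and translation of its mRNAs. RNA abundance was not analysed here, so that stronger binding and more mRNA cannot be told apart in any value that follows.

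Stretches of the 14-3-3 3′UTRs under clusters with many reads are shown because they are part of the RNA that the later values count. For each gene except YWHAZ, 30 nt were taken from its strongest site, and for YWHAB, YWHAG and YWHAQ also from the second. They are the 30 nt with the highest CPM per nt of cluster, summed over the 5 IGF2BP3 libraries. Counts are per cluster and not per nt, so each cluster was spread evenly over its length. Short clusters, above all those with RNase T1, therefore weigh most in where a stretch lies, and a stretch is not a measured peak of reads. The stretch of the second YWHAE site, mostly a run of T, lay whole under clusters in 2 libraries and is not shown. It holds CAGT (CAGU in RNA) at 1 place, and none of the stretches shown does. Sequences are those of GRCh38 on the transcribed strand, 5′ to 3′, with T for U, and capitals mark CATT (CAUU in RNA), one of the tetramers associated with IGF2BP proteins. They lie in the order given at chr20:44907095-44907124 (+), chr20:44907558-44907587 (+), chr17:1344558-1344587 (-), chr7:76328952-76328981 (-), chr7:76326980-76327009 (-), chr22:31956846-31956875 (+), chr2:9585215-9585244 (-), chr2:9584133-9584162 (-) and chr1:26864108-26864137 (+), each within a 3′UTR.
YWHAB, 657 to 686 nt after the stop codon: aaaagttcaagtgctcatataacacaccac
YWHAB, 1120 to 1149 nt: tttgaaatctaaaCATTctttcccaccatc
YWHAE, 860 to 889 nt: gaattaaCATTaaacttaaataaaacaaac
YWHAG, 596 to 625 nt: ttctaCATTacagccatatgtaacatcaag
YWHAG, 2568 to 2597 nt: tgttctctgaatgagcctttgtgctttttg
YWHAH, 54 to 83 nt: attcttccttgccacaatcactaaatatct
YWHAQ, 42 to 71 nt: tttacacatctcCATTccttattccacttg
YWHAQ, 1124 to 1153 nt: gtgatacctatatttccaCATTgtgCATTg
SFN, 149 to 178 nt: acctggggctggggatcccactcttcttgc
The second YWHAQ stretch holds CATT at 2 places, and the first of YWHAB, the second of YWHAG and those of YWHAH and SFN hold none. The stretches shown lay whole under clusters in all 5 IGF2BP3 libraries, except the second of YWHAQ, which did so in 4, and that of SFN, in 3.

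The reads within clusters summed to 2362467, 803490 and 670712 for RNase I 0.05/0.05, 0.1/0.025 and 0.05/0.025, to 1157194 and 182448 for RNase T1 1/1 and 0.25/0.25, and to 324 for IgG. These sums are the denominators of CPM, counts scaled to a total of 1000000 cluster reads, and are not library sizes. As a check of the label, 2 to 5 of 7 colorectal epithelial marker genes held a cluster in each IGF2BP3 library, with KRT20 and VIL1 at 0 reads in all 5, and 0 of 6 markers of blood, endothelial and stromal cells did.

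The 6 YWHA mRNAs were among the most densely bound mRNAs in every IGF2BP3 library, and SFN was not. Together the 7 genes held 11767 reads with RNase I 0.05/0.05 (0.498% of cluster reads, 0.489% to 0.507%), 5364 with RNase I 0.1/0.025 (0.668%, 0.650% to 0.686%) and 4645 with RNase I 0.05/0.025 (0.693%, 0.673% to 0.713%). RNase T1 gave 4842 reads at 1/1 (0.418%, 0.407% to 0.430%) and 1584 at 0.25/0.25 (0.868%, 0.827% to 0.912%). The share was thus highest in the library with the fewest cluster reads, and it was lower in both electroeluted libraries than in the 3 from crushed gel. The electroeluted libraries also had the most cluster reads, so that extraction and depth cannot be told apart here. In the IgG library the 7 genes held 0 of 324 reads. With 3 reads taken as the most that a count of 0 allows, here and below, the share could be up to 0.926%. This is above each of the shares with IGF2BP3, so a difference in share from IgG was not detectable for these genes at this depth. The yields differed widely. The IGF2BP3 library with RNase I 0.1/0.025 had 43385 clusters and 803490 cluster reads, 5364 of them on these genes, and the IgG library had 25 clusters.

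Following the study's criterion, a gene was called a target when 1 or more of its clusters exceeded both 10 CPM and 0.5 T-to-C conversion events per read. All 7 genes were called with RNase I 0.05/0.05, where 50.1% of the protein-coding genes with a cluster were, and all 7 with RNase I 0.1/0.025 (66.5% of genes) and RNase T1 0.25/0.25 (82.0%). With RNase I 0.05/0.025 (72.6%) and RNase T1 1/1 (52.2%) 6 of 7 were called. The member that was not called was SFN in both, and the 6 YWHA genes were called in all 5 libraries, as were 21.2% of the 9353 genes with a cluster in any of them. Of all protein-coding genes, 4389 were called with RNase I 0.05/0.05 and 3939 with RNase T1 1/1. Both counts are above those that the study reports for these enzymes, so the calls here do not reproduce its target sets. The reason was not tested. The SFN call turned on the threshold in 4 libraries. With more than 5 CPM SFN was called also in the 2 libraries where it was missed, and with at least 20 reads in place of the CPM it was called with RNase I 0.05/0.05 only. The limit of 10 CPM was 23.6 reads with RNase I 0.05/0.05, 8.03 with 0.1/0.025 and 6.71 with 0.05/0.025. With RNase T1 it was 11.6 reads at 1/1 and 1.82 at 0.25/0.25. In that last library each 14-3-3 cluster had 3 reads or more, so only the conversion limit could exclude one. SFN was called there on 7 reads, and calls in different libraries thus rest on unlike read numbers. In the IgG library, where 10 CPM is less than 1 read, 6 of 9 genes were called (66.7%) and none was a 14-3-3 gene.

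YWHAG and YWHAZ, encoding gamma and zeta, had the most reads. YWHAG (ENSG00000170027, GRCh38 chr7:76326799-76358991, minus strand) had 1319 CPM with RNase I 0.05/0.05 (3117 reads), 1754 with 0.1/0.025 (1409 reads), 1659 with 0.05/0.025 (1113 reads), 1051 with RNase T1 1/1 (1216 reads) and 2510 with RNase T1 0.25/0.25 (458 reads). YWHAZ (ENSG00000164924, chromosome 8, minus strand), often used as a reference gene in quantitative PCR, had 1243, 1586, 1597, 1371 and 2801 CPM in the same order of libraries. Both were highest with RNase T1 0.25/0.25, and in that library the intervals of YWHAG (2291 to 2751 CPM) and YWHAZ (2569 to 3054 CPM) overlapped.

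YWHAE (ENSG00000108953, chr17:1344275-1400222, minus strand), which encodes the epsilon isoform, had 819 CPM with RNase I 0.05/0.05, 1042 with 0.1/0.025, 1243 with 0.05/0.025, 366 with RNase T1 1/1 and 1167 with RNase T1 0.25/0.25. YWHAQ (ENSG00000134308, chr2:9583967-9630997, minus strand), encoding theta, had 764, 1138, 1302, 890 and 1272 CPM in the same order. YWHAE was thus well below its other libraries with RNase T1 1/1, whereas YWHAQ was lowest with RNase I 0.05/0.05.

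YWHAB (ENSG00000166913, chr20:44885702-44908532, plus strand), encoding beta, had 549, 741 and 762 CPM in the 3 RNase I libraries and 327 and 537 CPM with RNase T1 1/1 and 0.25/0.25. YWHAH (ENSG00000128245, chr22:31944522-31957603, plus strand), encoding eta, had 245, 382, 356, 158 and 356 CPM. Both were lowest with RNase T1 1/1. SFN (ENSG00000175793, chr1:26863149-26864456, plus strand) had 99 reads with RNase I 0.05/0.05 (41.9 CPM), 28 with 0.1/0.025 (34.8 CPM), 4 with 0.05/0.025 (5.96 CPM), 24 with RNase T1 1/1 (20.7 CPM) and 7 with RNase T1 0.25/0.25 (38.4 CPM). In each library SFN lay below the other 6 genes, and at 4 to 28 reads in 4 libraries its order among libraries is poorly measured.

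Per kb of mRNA, which allows genes to be compared, YWHAE had 399 CPM per kb with RNase I 0.05/0.05, YWHAG 356 and YWHAQ 348, followed by YWHAZ at 248, YWHAB at 182, YWHAH at 140 and SFN at 32.0. With RNase T1 1/1 the order was YWHAQ at 405 CPM per kb, YWHAG at 284, YWHAZ at 274, YWHAE at 179, YWHAB at 108, YWHAH at 90.3 and SFN at 15.9. The order of the upper 4 genes thus changed between these libraries, whereas YWHAB, YWHAH and SFN kept the last 3 places in both. The YWHAZ values divide by its canonical mRNA of 5011 nt, whose last 2056 nt held at most 1.26% of its 3′UTR reads in any library. A shorter length would raise them, so the place of YWHAZ among the upper 4 depends on the length used. Among all protein-coding genes with a cluster, the YWHA genes ranked at the 88.1st to 99.4th percentile of CPM per kb over the 5 libraries, and SFN at the 22.9th to 76.5th.

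**Figure D1:**
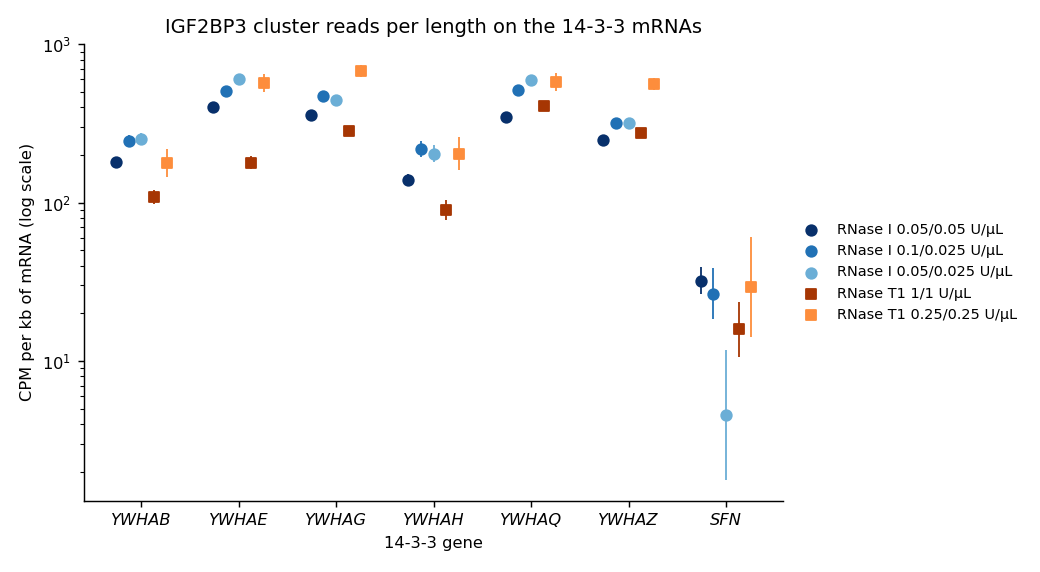
Cluster reads as CPM per kb of mRNA (log axis) for each 14-3-3 gene, with 1 point per IGF2BP3 library (circles for RNase I, squares for RNase T1) and bars for the 95% Wilson interval of the reads. The 6 YWHA genes lie at 90.3 CPM per kb or above in every library and SFN at 32.0 or below.

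The 2 electroeluted libraries allow the enzymes to be set side by side within 1 gel extraction. The CPM with RNase T1 1/1 was 0.447 times that with RNase I 0.05/0.05 for YWHAE (0.402 to 0.497), 0.595 times for YWHAB (0.530 to 0.668), 0.646 times for YWHAH (0.544 to 0.765) and 0.796 times for YWHAG (0.745 to 0.851). YWHAQ had 1.17 times the CPM with RNase T1 1/1 (1.08 to 1.26) and YWHAZ 1.103 times (1.04 to 1.17). SFN had 0.495 times (0.303 to 0.779), based on 24 and 99 reads. The median ratio over 5905 protein-coding genes with at least 50 reads in both libraries together was 0.960, and the 7 genes lay between the 18.6th and the 61.6th percentile of those genes, with YWHAE the lowest and YWHAQ the highest. In the libraries from crushed gel, RNase T1 0.25/0.25 against RNase I 0.05/0.025, YWHAZ had 1.75 times the CPM (1.58 to 1.95) and YWHAG 1.51 times (1.35 to 1.69). YWHAB had 0.705 times (0.562 to 0.877), the intervals of YWHAE, YWHAH and YWHAQ included 1, and SFN had only 7 and 4 reads. The median over 2665 genes was here 0.870, and YWHAZ lay at the 89.3rd percentile, YWHAG at the 82.7th YWHAB at the 38.7th and SFN, on its few reads, at the 99.8th. The ratio of YWHAB was below 1 in both pairs, and YWHAG lay on different sides.

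Some of these ratios turned on clusters whose sequence is found elsewhere in the genome. In an alternative chosen after seeing the data, without clusters made only of 30-nt pieces that match another place exactly, the ratio of RNase T1 1/1 over RNase I 0.05/0.05 was 0.847 in YWHAZ (0.791 to 0.907), now below 1, 1.04 in YWHAQ (0.960 to 1.13), 0.311 in YWHAE (0.274 to 0.352) and 0.528 in YWHAB (0.466 to 0.596). This removed 395 of 1587 YWHAZ reads with RNase T1 1/1 and 64 of 2937 with RNase I 0.05/0.05. A cluster was dropped only when all its pieces matched elsewhere, which happens more readily in a short cluster. In YWHAE the RNase T1 1/1 cluster of 130 reads at 860 to 903 nt was dropped. The RNase I 0.05/0.05 cluster of 1629 reads at 215 to 1024 nt, which covers the same bases, was kept. What part cluster length has in the lower ratios was not tested. In the libraries from crushed gel YWHAQ came to 0.573 (0.473 to 0.688) and YWHAZ to 1.38 (1.22 to 1.55). The direction of the YWHAZ ratio between the electroeluted libraries is therefore not settled. A pair without a replicate compares 2 libraries and not the enzymes in general.

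The reads of the 14-3-3 genes lay almost wholly in 3′UTRs. Clusters that overlapped an annotated 3′UTR held 97.9% of the reads of the 7 genes with RNase I 0.05/0.05 (97.6% to 98.2%), 98.4% with 0.1/0.025, 98.8% with 0.05/0.025, 99.1% with RNase T1 1/1 and 99.7% with RNase T1 0.25/0.25 (99.3% to 99.9%). Over all protein-coding genes the shares were 81.2%, 83.0%, 81.6%, 87.9% and 88.0%, lower than for the 14-3-3 genes in each library. When clusters that reach across the stop codon were given to the coding sequence, 79.1% of the 14-3-3 reads remained in the 3′UTR with RNase I 0.05/0.05. The rest lay in coding sequence, 246, 85 and 58 reads in the RNase I libraries and 42 and 5 with RNase T1. No cluster lay in a 5′UTR or an intron of these genes or antisense to them in any library.

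With RNase I the largest coding share of the YWHA genes was in YWHAE, with 129 of 1936 reads with RNase I 0.05/0.05 (3′UTR share 93.3%, 92.1% to 94.4%), 52 of 837 with 0.1/0.025 and 51 of 834 with 0.05/0.025. With RNase T1, YWHAE had 9 of 424 and 0 of 213 reads in coding sequence, and the largest coding share was in YWHAB, with 23 of 378 and 5 of 98. The strongest coding site of YWHAE, chr17:1361090-1361237, held 80, 31 and 29 reads in the RNase I libraries but 4 and 0 with RNase T1. SFN had 25 of 99 reads in coding sequence with RNase I 0.05/0.05, and 14 of 28 with 0.1/0.025. The YWHAH clusters at chr22:31956538-31956587 and chr22:31956656-31956766, with 8 and 21 reads over all libraries, were counted to a 3′UTR of another transcript and lie in the coding sequence of the canonical one.

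When clusters of the 5 IGF2BP3 libraries that overlapped were merged, the 7 genes had 53 sites, 38 in 3′UTRs and 15 in coding sequence. In all 5 libraries 21 sites were found (39.6%, 27.6% to 53.1%), each in a 3′UTR, and 9 were found in 1 library. No coding site was found in all 5. The 21 shared sites held between 95.5% and 98.7% of the reads of the 7 genes in each library, so the sites that came and went were weak. YWHAZ had 6 shared sites of 14, YWHAG 5 of 12, YWHAB 4 of 10, YWHAE 2 of 6, YWHAQ 2 of 4, YWHAH 1 of 3 and SFN 1 of 4. Because broad clusters join neighbours, 1 merged site can hold several separate clusters.

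**Figure D2:**
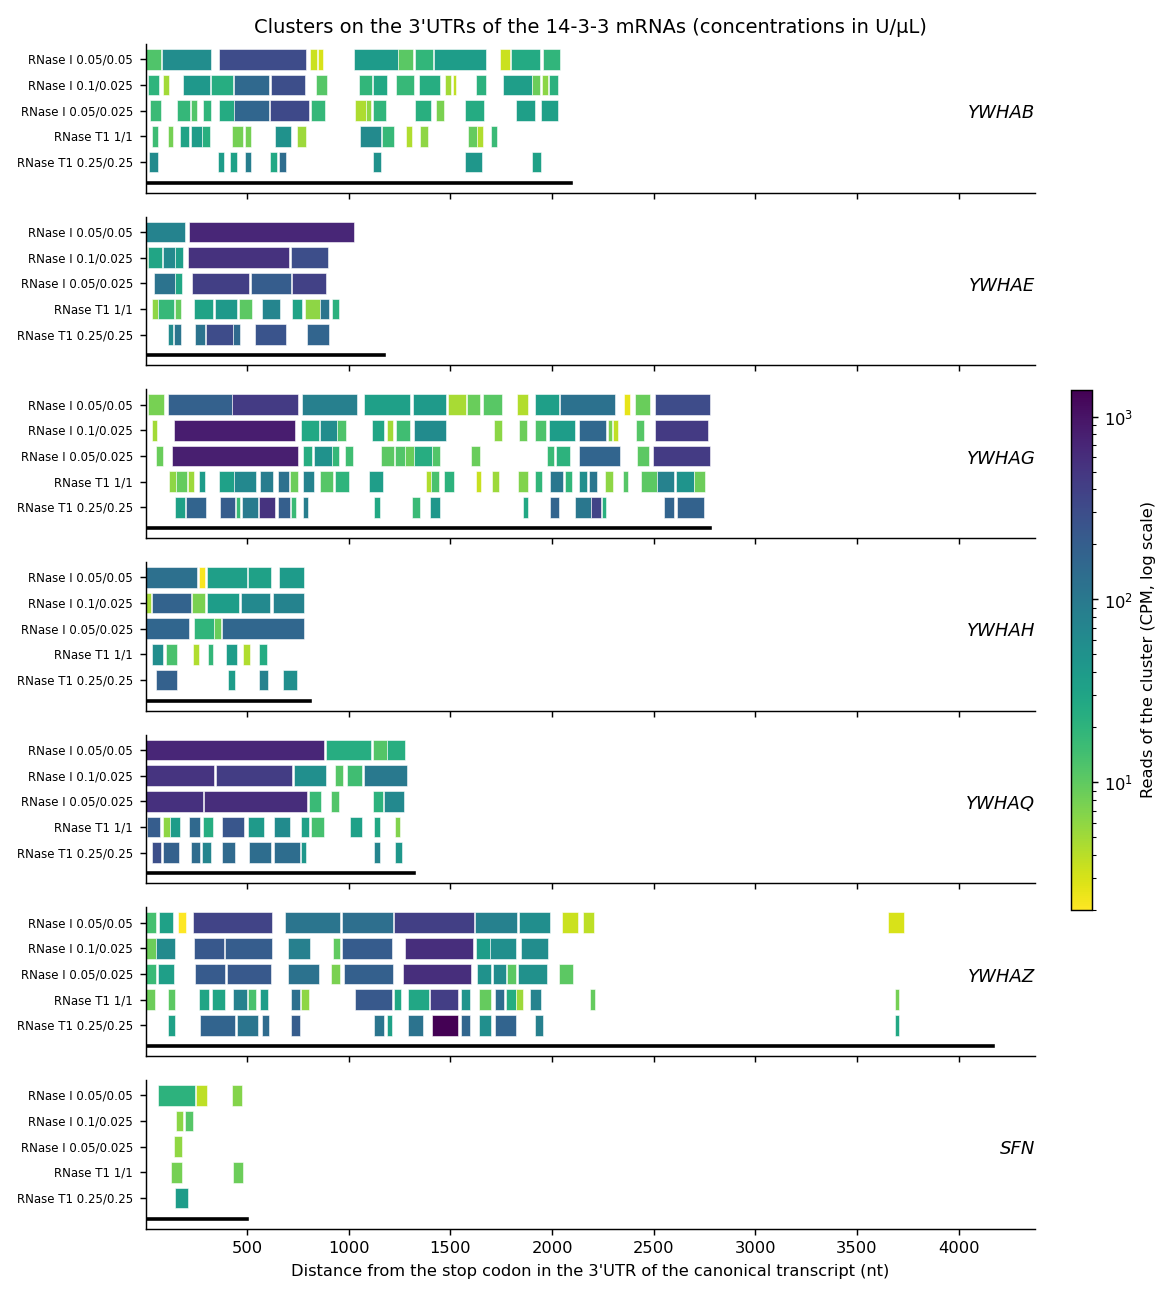
Clusters on the 3′UTR of the canonical transcript of each 14-3-3 gene by distance from the stop codon (nt), with 1 row per IGF2BP3 library, colour for the CPM of the cluster (log scale) and a black line for the annotated 3′UTR. Parts of clusters outside the 3′UTR are not drawn. RNase I clusters are broad and often adjoin, RNase T1 clusters are short, and YWHAZ has almost no clusters past 2114 nt.

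A single broad site dominated several of these 3′UTRs. In YWHAQ (3′UTR of 1319 nt, chr2:9583967-9585285) the site at chr2:9584399-9585316, which reaches across the stop codon and holds the first YWHAQ stretch shown above, had 698, 1013 and 1194 CPM in the RNase I libraries and 822 and 1156 with RNase T1. It held 89.1% to 92.3% of the reads of the gene. In YWHAE (3′UTR of 1172 nt) the site at chr17:1344423-1345240 had 690, 843, 1024, 326 and 998 CPM and 80.9% to 88.9% of the reads. Both sites held most reads of their gene with either enzyme, and the low value of YWHAE with RNase T1 1/1 was also seen in its site. The merged sites are 918 nt (YWHAQ) and 818 nt (YWHAE) long and take up most of each 3′UTR. These shares therefore follow largely from the merging and do not show that the enzymes mark the same place. YWHAH (3′UTR of 811 nt) had 95.4% to 100% of its reads in the site at chr22:31956777-31957571, which is 795 nt long.

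YWHAB (3′UTR of 2094 nt, chr20:44906439-44908532) had its main site at chr20:44906521-44907243, with 367, 520 and 573 CPM in the RNase I libraries and 170 and 323 with RNase T1. Its share of the YWHAB reads was 66.9% to 75.1% with RNase I and 52.1% and 60.2% with RNase T1. The next site, chr20:44907462-44907757, which holds the second YWHAB stretch with CATT, had 49.5, 63.5 and 29.8 CPM with RNase I and 84.7 and 49.3 with RNase T1. With RNase T1 1/1 this site was therefore at its highest and the main site at its lowest.

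YWHAG, with a 3′UTR of 2778 nt (chr7:76326799-76329576), was bound along its whole length. The site at 109 to 751 nt after the stop codon had 641, 824 and 799 CPM with RNase I and 382 and 1277 with RNase T1, between 36.3% and 50.9% of the reads of the gene. At the other end the site at chr7:76326788-76327169 had 320, 475, 461, 144 and 356 CPM. The next strong site towards the stop codon, chr7:76327245-76327663, had 157, 217 and 209 CPM with RNase I but 314 and 674 with RNase T1, so that it was the weaker of the pair in the RNase I libraries and the stronger in the RNase T1 libraries.

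YWHAZ has the longest 3′UTR of the family, 4170 nt in the canonical transcript, with other annotated transcript ends at 2007, 2010 and 2114 nt after the stop codon. Its main site, starting at 1224 nt, had 417, 601 and 590 CPM with RNase I, 533 with RNase T1 1/1 and 1650 with RNase T1 0.25/0.25. In that last library 1 cluster alone had 250 reads (1370 CPM). Past 2114 nt, in 2056 of the 4170 nt, there were 16 of 2893 3′UTR reads with RNase I 0.05/0.05 (0.553%, 0.341% to 0.897%), 0 of 1263 with 0.1/0.025, 0 of 1071 with 0.05/0.025, 20 of 1587 with RNase T1 1/1 (1.26%, 0.817% to 1.94%) and 5 of 511 with RNase T1 0.25/0.25. The 0 of 1263 reads allow a share of up to 0.238%. Whether the longer transcript is present in these cells was not tested.

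SFN, with a 3′UTR of 497 nt (chr1:26863960-26864456), had 1 site in all 5 libraries, at chr1:26864022-26864201, with 49, 14, 4, 9 and 7 reads. That is the site of the GC-rich stretch shown above. Its second 3′UTR site of more than 1 library, at chr1:26864384-26864440, had 16 reads with RNase I 0.05/0.05 and 10 with RNase T1 1/1. These are the 2 electroeluted libraries and also those with the most cluster reads.

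RNase I left a larger part of these 3′UTRs under clusters than RNase T1. With RNase I 0.05/0.05 the covered share was 95% in YWHAQ, 88.1% in YWHAG, 87.9% in YWHAH, 85.5% in YWHAE, 81.9% in YWHAB, 57.1% in SFN and 48.7% in YWHAZ. With RNase T1 1/1 it was 55.7% in YWHAQ, 54.9% in YWHAG, 36.7% in YWHAH, 59.0% in YWHAE, 35% in YWHAB, 21.7% in SFN and 28.8% in YWHAZ. The YWHAZ shares are of all 4170 nt, including the 2056 nt past 2114 nt, which had almost no clusters. All 7 genes had a larger covered share with RNase I 0.05/0.05 than with RNase T1 1/1, as had 94.7% of 6288 genes with 3′UTR clusters in both libraries. The former library had more cluster reads, and what part this has in the difference was not tested, since clusters cannot be called anew from the deposited counts.

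With RNase I 0.1/0.025, where the total of cluster reads was the smaller one, 6 of 7 genes were broader than with RNase T1 1/1, where 69.5% of genes were. The same 6 genes were broader with RNase I 0.05/0.025 (60.0% of genes), and SFN was the exception in both, with 14.3% and 7.65% covered. YWHAH was the only gene whose coverage was higher in these 2 libraries, at 90.0% and 92.8%, than with RNase I 0.05/0.05. Against RNase T1 0.25/0.25, 7 of 7 genes were broader with RNase I 0.05/0.05 (99.5% of genes) and 0.1/0.025 (98.3%), and 6 of 7 with 0.05/0.025 (97.3%), again without SFN. RNase T1 0.25/0.25 gave the lowest coverage of the 6 YWHA genes, from 17.4% in YWHAB to 45.6% in YWHAE. Each YWHA gene was above the median of all genes with a 3′UTR cluster, which was 23.2%, 13.2% and 12% in the RNase I libraries and 7.82% and 4.73% in the RNase T1 libraries.

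**Figure D3:**
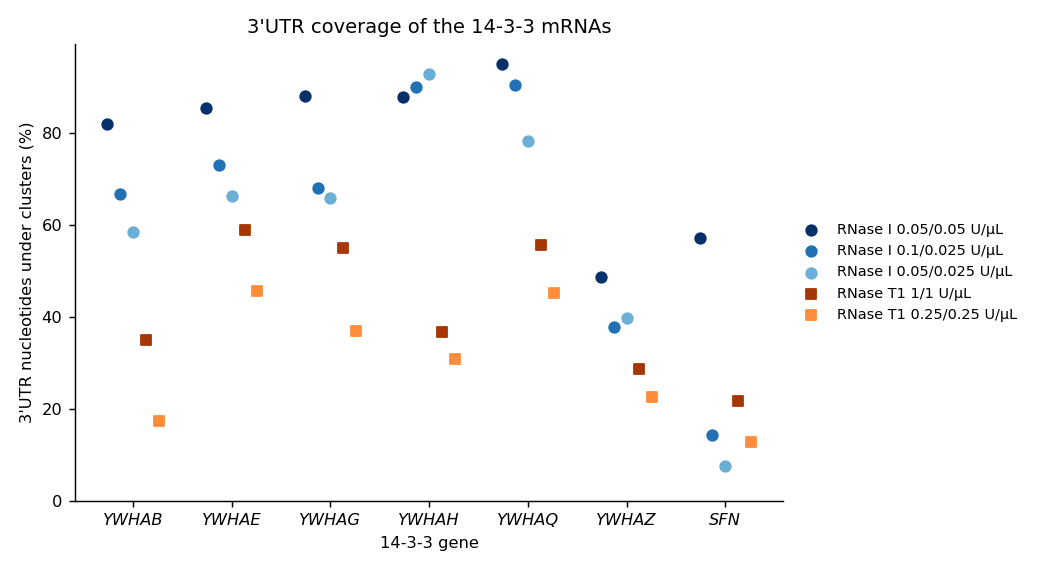
Share of 3′UTR nucleotides under clusters (%) in the canonical transcript of each 14-3-3 gene, with 1 point per IGF2BP3 library, circles for RNase I and squares for RNase T1. In the 6 YWHA genes each RNase I point lies above each RNase T1 point.

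Clusters of the 14-3-3 genes had a median length of 87.5, 67 and 68 nt in the RNase I libraries and 45.5 and 45 nt with RNase T1, against 57, 55, 55, 34 and 38 nt over all protein-coding genes. The longest of a gene were 908 nt in YWHAQ and 810 nt in YWHAE, both with RNase I 0.05/0.05, and 623 nt in YWHAG with RNase I 0.05/0.025. With RNase T1 none was longer than the 180 nt of a YWHAZ cluster with 1/1. Of 106 14-3-3 clusters, 99 ended in G with RNase T1 1/1 (93.4%), and 58 of 65 did with RNase T1 0.25/0.25 (89.2%), whereas 17.1%, 18.2% and 15.4% did with RNase I. RNase T1 cleaves after G, and the shares over all protein-coding genes were 94.8%, 92.0%, 13.3%, 12.3% and 12.1%.

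Conversion events per read over the 7 genes were 0.660 with RNase I 0.05/0.05, 0.672 with 0.1/0.025, 0.626 with 0.05/0.025, 0.484 with RNase T1 1/1 and 0.566 with RNase T1 0.25/0.25. Over all protein-coding genes they were 0.638, 0.651, 0.608, 0.512 and 0.552, so that the family was above this level in 4 libraries and below it with RNase T1 1/1. These differences are small, and whether each exceeds counting error was not tested. Below the level of all genes in that library were YWHAQ, YWHAE, YWHAZ and YWHAG, of which YWHAQ and YWHAE were the lowest. YWHAQ had 0.679 (0.642 to 0.718), 0.694 and 0.636 conversion events per read with RNase I and 0.397 (0.360 to 0.438) and 0.470 (0.386 to 0.567) with RNase T1. YWHAE had 0.672 (0.636 to 0.710), 0.627 and 0.620 with RNase I and 0.446 (0.384 to 0.514) and 0.469 (0.382 to 0.571) with RNase T1. In both genes the RNase T1 values lay below all 3 RNase I values, as they did in YWHAZ, in YWHAH and over all protein-coding genes.

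In YWHAQ 2 of 13 clusters passed the target criterion with RNase T1 1/1. Its cluster with the most reads there, 283 reads at 374 to 485 nt after the stop codon, had 0.286 events per read, and the cluster of 239 reads at 7 to 71 nt had 0.510. In YWHAE the cluster of 130 reads at 860 to 903 nt, which includes the stretch shown above and consists only of pieces that match elsewhere in the genome, had 0.277 in that library, and the cluster of 83 reads at 572 to 659 nt had 0.735. All 13 YWHAQ clusters had between 0.25 and 0.625 events per read in that library, whereas the YWHAE clusters spread from 0.0556 to 0.857. The YWHAQ clusters were thus below the lowest RNase I value of the gene as a whole, 0.636. Single YWHAQ clusters with RNase I did reach into that range, such as 0.580 (376 reads) and 0.364 (11 reads) with 0.05/0.025.

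YWHAB had 0.691 (0.646 to 0.737), 0.704 and 0.648 with RNase I, 0.593 (0.518 to 0.675) with RNase T1 1/1 and 0.704 (0.548 to 0.891) with RNase T1 0.25/0.25. YWHAZ had 0.677, 0.690 and 0.653 with RNase I and 0.493 and 0.597 with RNase T1, and YWHAG 0.613, 0.655, 0.572, 0.509 and 0.594. In YWHAH (0.554 to 0.699) and SFN (0.536 to 0.857) the counting intervals of all 5 libraries overlapped.

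**Figure D4:**
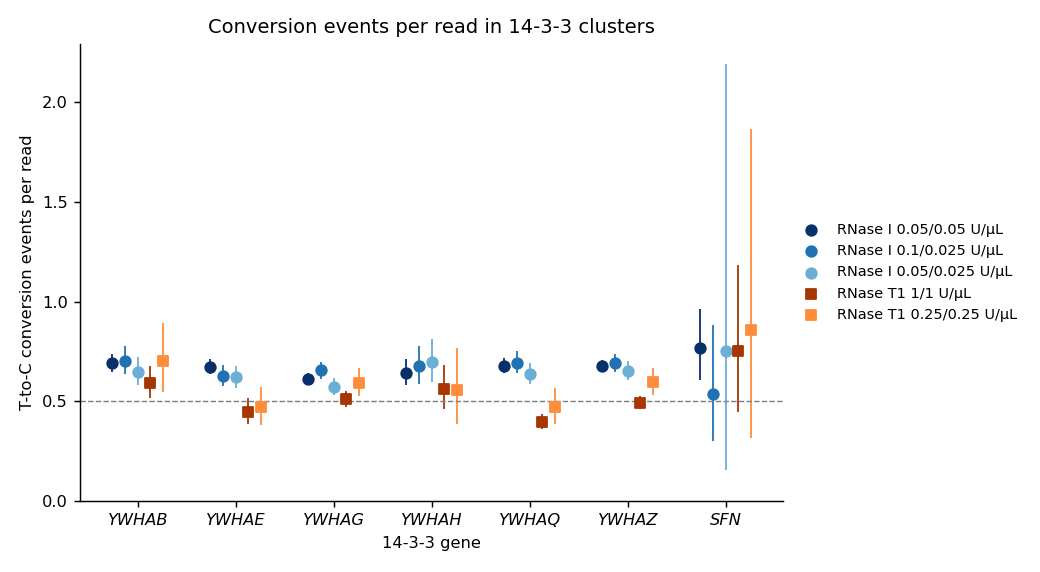
T-to-C conversion events per read in the clusters of each 14-3-3 gene, with 1 point per IGF2BP3 library, 95% Poisson intervals as bars and a dashed line at the 0.5 of the target criterion. With RNase T1 1/1 the points of YWHAE, YWHAQ and YWHAZ lie below the line, at 0.446, 0.397 and 0.493.

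The tetramers CAUU, a known IGF2BP3 motif, and CAGU, which holds a G at which RNase T1 can cut, were counted on the transcribed strand. Both were taken up with the study's own motif results known. CAUU was in 44.3%, 41.6% and 50.8% of 14-3-3 clusters with RNase I and in 37.7% and 41.5% with RNase T1, against 39.5%, 41.6%, 41.0%, 35.2% and 39.99% of clusters on all protein-coding genes. Each of these family intervals included the share over all genes, and per kb of cluster CAUU was rarer in the family in all 5 libraries, at 6.63, 7.42, 7.72, 9.10 and 9.73 against 7.53, 8.52, 8.38, 11.0 and 11.5. CAGU was in 54.3%, 44.2% and 44.6% of 14-3-3 clusters with RNase I and in 24.5% and 29.2% with RNase T1, against 34.9%, 35.2%, 34.2%, 11.8% and 18.7% over all genes. The family interval lay above the share over all genes with RNase I 0.05/0.05 and with both RNase T1 libraries. The 14-3-3 clusters were longer, and per kb of cluster CAGU was found 6.35, 6.46 and 6.02 times with RNase I, close to the 6.25, 6.67 and 6.49 over all genes. With RNase T1 it was found 5.64 and 6.31 times per kb, against 3.38 and 4.81.

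The 3′UTRs of the 7 genes, 12841 nt in all, held CAUU 79 times and CAGU 79 times. Of the CAUU occurrences 86.1%, 78.5% and 74.7% lay whole under a cluster with RNase I and 63.3% and 46.8% with RNase T1, where 73.6%, 60.1%, 56.9%, 41.2% and 29.4% of all nucleotides were covered. Of the CAGU occurrences 75.9%, 65.8% and 57.0% lay under a cluster with RNase I and 36.7% and 29.1% with RNase T1. CAUU was thus covered more often than the average nucleotide in all 5 libraries, and CAGU was near the average, on its lower side with RNase T1. No test was made, since occurrences in 1 mRNA share its clusters.

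**Figure D5:**
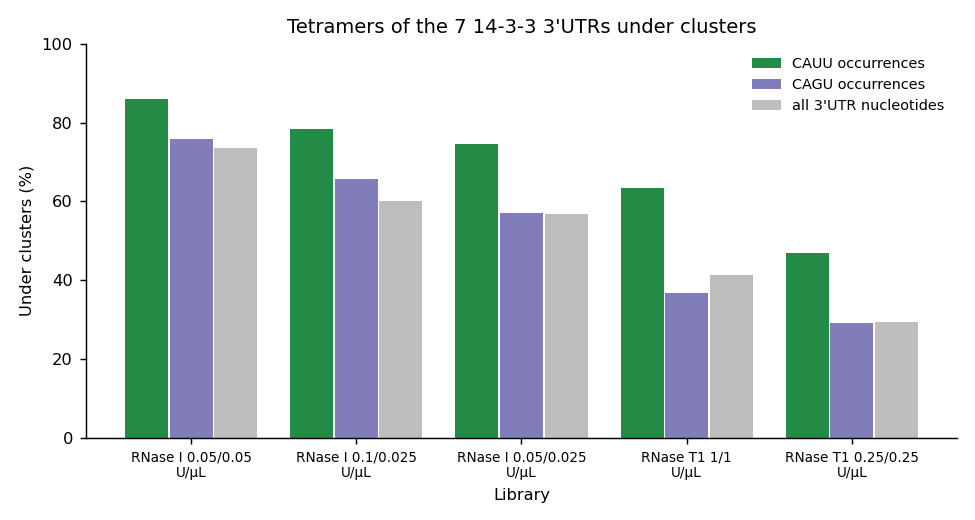
Share of the 79 CAUU occurrences, the 79 CAGU occurrences and all 12841 nt of the 14-3-3 3′UTRs that lay under clusters (%), in each of the 5 IGF2BP3 libraries. The CAUU bar is the tallest in each library.

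CAUU was densest in YWHAQ, with 14 in 1319 nt, and YWHAE, with 11 in 1172 nt, and the YWHAG 3′UTR had 15 and 27 CAGU. All 9 CAUU of YWHAB and all 15 of YWHAG lay under clusters with RNase I 0.05/0.05, and 18 of 27 did in YWHAZ, which had few clusters past 2114 nt. SFN had no CAUU in its 3′UTR and 3 CAGU, none of them under a cluster in any library. The SFN 3′UTR had 63.0% G and C and 22.7% U, whereas the YWHA 3′UTRs had 35.8% to 41.7% G and C and 31.8% to 35.1% U. SFN was thus both the least bound gene of the family and the one whose 3′UTR differed most in composition, and what part either has in its low reads was not tested.

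Because the YWHA genes have many processed pseudogenes, the uniqueness of the clusters was examined. Of the 30-nt pieces cut from the member clusters, 61.2% in YWHAQ, 57.1% in YWHAZ, 31.9% in YWHAE and 9.83% in YWHAB matched another place in GRCh38 exactly, and 0 pieces in YWHAG, YWHAH and SFN did. How the authors placed reads with several best matches is not given in the sources used here. Clusters made only of such pieces held 636 of 7380 reads in YWHAZ (8.62%), 330 of 4853 in YWHAQ (6.80%), 143 of 4244 in YWHAE (3.37%) and 61 of 2878 in YWHAB (2.12%). Without them the same number of members was called in each library.

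Among genes with at least 50 reads in each IGF2BP3 library, the profile over the 5 libraries that was nearest to the summed 14-3-3 profile was that of NOLC1, at a distance of 0.08 (Euclidean, log2 CPM centred over the libraries), against a median of 0.85 over 746 genes. NOLC1 had 803, 1129, 1157, 713 and 1507 CPM. EIF4H (0.12), RAVER1 (0.13), ENSG00000267303 (0.15), which shared the reads of RAVER1, and PRDX6 (0.16) followed. Of the members, YWHAG was nearest to the sum at 0.20 and YWHAE farthest at 0.82, SFN having too few reads to be compared.

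A list of 40 genes whose proteins are known 14-3-3 partners was examined in the same way. With RNase I 0.05/0.05, 35 of the 40 held a cluster and 22 of these were called targets (62.9%, against 50.1% of all genes), with 0.1/0.025 18 of 27 (66.7%, against 66.5%) and with 0.05/0.025 19 of 25 (76.0%, against 72.6%). With RNase T1 1/1 18 of 29 were called (62.1%, against 52.2%) and with RNase T1 0.25/0.25 14 of 15 (93.3%, against 82.0%). In all 5 libraries 11 of the 40 were called, and 16 were called in none. Of the 36 partner genes with a cluster in any IGF2BP3 library, 30.6% were called in all 5 (21.2% of all such genes) and 33.3% in none (36.7%). Those with the most reads among the 11 were IRS1, an adaptor of the insulin receptor, with 2311 reads with RNase I 0.05/0.05, the cofilin phosphatase SSH1 (1556), the ubiquitin ligase CBL (1245), the Hippo pathway coactivator YAP1 (1117), the p53 inhibitor MDM4 (1083) and LARP1, which represses translation of mRNAs with a terminal oligopyrimidine tract (1057). Of the cell cycle phosphatases on the list, CDC25A and CDC25C were among the 16, and CDC25B was among the 11.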

How the data were processed

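Per the labels and the study's methods, reads of 18 to 45 nt (Trimmomatic 0.30) were mapped to GRCh38 by Bowtie 0.12.7 with up to 3 mismatches, and duplicates were removed by molecular identifier (UMI-tools 1.1.1). PARalyzer then called clusters in each library on its own. What the authors deposited are raw counts per cluster: reads, conversion events and non-conversion events. The deposited mode score was not used. All 383 cluster sequences were identical to GRCh38 at their position.

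The tools were bedtools 2.31.1, BLAST+ 2.17.0 and pysam 0.24.0, under Python 3.11.15 with scipy 1.17.1, pandas 2.3.3, matplotlib 3.10.9 and numpy 2.4.6. Features were taken from protein-coding transcripts of GENCODE release 44, with 3′UTR put before coding sequence and that before 5′UTR and other exon, and with the stop codon counted to the coding sequence. The CPM denominator is the sum of cluster reads, a 3′UTR is that of the canonical transcript, and pieces of 30 nt at steps of 10 nt were matched to the main chromosomes with blastn. Tested on simulated data, 400 of 400 clusters were assigned to their gene, 200 of 200 targets were recovered and 0 of 200 non-targets were called. The simulated targets were set clear of both limits and each non-target below a limit, in 3′UTRs that overlap no exon of another gene. The result thus checks that the code works as intended, and not how accurate the calls are on real data.

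The members, lists, criteria and alternatives were chosen with earlier results of these data known. Genes were named by rule: the 7 members, the 5 nearest profiles, pseudogenes with a cluster, and at most 6 partners called in all 5 or in none of the IGF2BP3 libraries. The 3 CDC25 genes were named after their values were seen. The alternatives changed the denominator, the overlap, the target criterion, the feature order, the conversion measure, the read depth, the 3′UTR model, the merging of sites and the span searched for tetramers. With 1 library per condition no test between conditions was possible. Sequences from chromosome 8 are not shown.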

Additional observations from a re-analysis of the deposited data

Results flagged for a closer look

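Processed pseudogenes of the 14-3-3 genes, which the exon rule left out, held clusters with RNase I. They had 83 reads with RNase I 0.05/0.05, 24 with RNase I 0.1/0.025 and 11 with RNase I 0.05/0.025, and 0 with either RNase T1 library. The IgG library had 0 of 324 reads there, which allows up to 9259 CPM, so that a difference in CPM from IgG was not detectable at its depth. Of 25 annotated pseudogenes 7 held a cluster. With RNase I 0.05/0.05 YWHAZP3 had 33 reads, YWHAEP5 15, YWHAZP2 9, YWHAZP10 8, YWHAZP5 7, YWHAQP6 6 and YWHAEP1 5. The part of reads from the parent mRNAs in these clusters was not tested.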

How the results depend on the processing

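Of 109 alternative values, 79 stayed within the counting interval or within 1.5 times of the reported count. With reads on protein-coding exons as the denominator, the family CPM moved to 5872, 7892 and 8315 in the RNase I libraries (0.05/0.05, 0.1/0.025, 0.05/0.025) and 4982 and 10406 with RNase T1 (1/1, 0.25/0.25), and the order of libraries held. An alternative chosen after seeing the data, without clusters whose pieces all match elsewhere, moved it to 3573 and 7476 with RNase T1, and turned the YWHAZ ratio of RNase T1 1/1 over RNase I 0.05/0.05 from 1.103 to 0.847. This alternative drops short clusters more readily than long ones over the same sequence. With more than 0.75 conversion events per read, 3 members were called with RNase I 0.05/0.05, 4 with 0.1/0.025 and 2 with RNase T1 1/1. With more than 0.5 of all conversion and non-conversion events, 0 were called in all 5 libraries, since the denominator then counts every T of each read. For the same reason the converted share was 0.0733, 0.0734, 0.0665, 0.0499 and 0.0593. Coding sequence first gave 79.1%, 90.1% and 88.0% of reads in the 3′UTR with RNase I, as broad clusters cross the stop codon. Extending clusters by 10 nt raised CAGU to 34.9% with RNase T1 1/1. No paired analysis was possible because each condition has 1 library. Depth limits SFN, at 4 to 99 reads, and the comparison with IgG, at 324 reads.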
